A study of Homo sapiens with 6 samples.

Results

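The mitochondrial ribosomal proteins are the nuclear-encoded proteins of the ribosome that works inside mitochondria. Members were taken as every gene whose symbol is MRPL or MRPS followed by a number and, where present, a letter A to C. This gave 78 genes of the 60671 named genes in the table, and 78 of 78 passed the filter on low counts that left 16327 genes to test. The rule used symbols only and no measured value. BJ is an established line of human foreskin fibroblasts. The study followed these wild-type cells through a chemical protocol that the labels describe as making induced neuron cells, called FiN. The 2 day 0 libraries, labelled as fibroblasts, came from BJ cells grown in DMEM with serum. The 2 day 2 libraries came from cells kept in neuronal induction medium with 10 µM forskolin, an activator of adenylyl cyclase. The 2 day 5 libraries came from cells then moved to neuronal maturation medium, also with 10 µM forskolin. No library without forskolin at days 2 and 5 was analysed here, and effects of time, medium and drug cannot be told apart.

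As background, the mitochondrial ribosome, or mitoribosome, translates the few mRNAs of mitochondrial DNA, which encode core subunits of the respiratory chain and of ATP synthase. Its large and small subunits are each built on an rRNA that mitochondrial DNA encodes, whereas its proteins are made in the cytosol and imported. Many of them are homologues of bacterial ribosomal proteins, and others are found in mitochondria only. The symbols do not always give the subunit. MRPS18A and MRPS30 sit in the large subunit, and the product of MRPS36 is now known as a component of 2-oxoglutarate dehydrogenase and not of the ribosome. By these assignments the 78 members held 51 proteins of the large subunit, 26 of the small subunit and MRPS36.

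Library totals ran from 17599504 to 27941919 counts, lowest at day 5, and the 2 libraries of each day differed by more than sampling noise (chi-square per degree of freedom 2.33 to 2.44). Separate cultures within a day are not stated in the labels. P-values therefore measure the spread between these libraries only, which may be technical. The 8 fibroblast markers fixed for this work had sums, in CPM (reads of a gene scaled to the normalised size of its library), of 24587 and 25006 at day 0, 22876 and 23146 at day 2 and then 32606 and 33120 at day 5. Most of these markers went the other way from the day 5 sum. Of the 8, 3 were higher and 5 lower at each of days 2 and 5 against day 0. At day 5 COL1A2 (1.503 on the log2 scale), COL3A1 (1.34) and PDGFRB (1.04) were higher, and DCN (-2.37), THY1 (-2.04), VIM (-1.73), COL1A1 (-0.20) and FN1 (-0.05) were lower. Of 8 neuronal markers, STMN2 had no counts in any library, DCX reached at most 0.0546 CPM, NEFL 0.236 CPM and RBFOX3 0.52 CPM. The list, mostly TUBB3, had summed CPM of 250 and 259 at day 0, 151 and 159 at day 2 and then 110 and 114 at day 5, so these markers go against the neuron label of the libraries labelled FiN, although SNAP25 was higher at day 5 (1.64 on the log2 scale). Of the 8 markers of epithelial, endothelial and white blood cells, the highest was EPCAM with at most 0.545 CPM, and KRT5, KRT14 and CD3E had no counts. The 4 markers of dividing cells moved with the protocol and had summed CPM of 61.1 and 59.2 at day 0, 14.65 and 14.02 at day 2 and then 28.23 and 24.98 at day 5. Their part in any result on the mitochondrial ribosomal proteins was not tested. In bulk RNA, fewer cells expressing a gene and less RNA per cell cannot be told apart.

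Promoters of 4 members are shown as examples. MRPS6 and MRPS10 were among the largest falls described below. MRPL52 and MRPL17 fell by less at day 2 (-0.38 and -0.33 on the log2 scale) and show several matches to the motifs given here. RefSeq promoter sequences on GRCh38.p14 were matched by symbol for 69 of the 78 members. Entries were not matched for MRPL2, MRPL10, MRPL13, MRPL15, MRPL21, MRPL23, MRPL35, MRPS28 and MRPS36. Each printed run covers 250 bases before the annotated start and 30 after it, 5′ to 3′ on the gene's strand. Capitals mark exact matches, on either strand, to 3 short motifs of factors known to act at promoters of nuclear genes for mitochondrial proteins. These were GCATGCGC for NRF1 (nuclear respiratory factor 1), CCGGAAG for the ETS family that includes GABPA, and AAGATGGCG for YY1. MRPL52 (chr14:22829637-22829916, plus strand), which fell at both later days, carried matches to all 3. MRPL17 (chr11:6683311-6683590, minus strand), which also fell at both, carried 3 NRF1 matches, 2 of them overlapping on opposite strands. MRPS10 (chr6:42217832-42218111, minus strand), among the largest falls at day 5, carried 1 ETS and 1 YY1 match. MRPS6 (chr21:34073328-34073607, plus strand), the largest fall at day 2, carried none. Its run begins downstream of the GENCODE gene start at 34073224, so the bases before that start were not searched.
MRPL52: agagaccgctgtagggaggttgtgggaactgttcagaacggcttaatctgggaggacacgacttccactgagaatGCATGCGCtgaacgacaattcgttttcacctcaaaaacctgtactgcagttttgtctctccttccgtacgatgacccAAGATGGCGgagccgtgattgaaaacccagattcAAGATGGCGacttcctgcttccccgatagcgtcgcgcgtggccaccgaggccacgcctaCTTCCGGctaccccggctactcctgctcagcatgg
MRPL17: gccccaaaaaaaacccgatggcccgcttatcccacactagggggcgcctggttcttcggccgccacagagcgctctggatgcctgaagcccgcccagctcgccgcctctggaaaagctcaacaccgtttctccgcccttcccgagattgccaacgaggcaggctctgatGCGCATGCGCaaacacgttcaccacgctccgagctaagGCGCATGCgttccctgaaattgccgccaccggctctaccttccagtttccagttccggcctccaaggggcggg
MRPS10: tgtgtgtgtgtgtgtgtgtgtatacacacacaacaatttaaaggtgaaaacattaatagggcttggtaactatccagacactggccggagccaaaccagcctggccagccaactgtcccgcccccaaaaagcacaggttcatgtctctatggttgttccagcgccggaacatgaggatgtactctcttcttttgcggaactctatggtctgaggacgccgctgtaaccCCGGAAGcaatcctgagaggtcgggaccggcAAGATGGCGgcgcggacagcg
MRPS6: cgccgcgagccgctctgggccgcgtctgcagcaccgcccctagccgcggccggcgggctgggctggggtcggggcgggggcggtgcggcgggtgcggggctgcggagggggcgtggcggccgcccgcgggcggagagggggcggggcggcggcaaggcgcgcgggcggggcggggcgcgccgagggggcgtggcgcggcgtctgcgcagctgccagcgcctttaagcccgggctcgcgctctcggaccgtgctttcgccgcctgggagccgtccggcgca

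In the full 300-base windows, the ETS motif was found in 29 of the 69 matched members (42%), against 10.7% of all 27305 promoters in the table. The YY1 motif was found in 13 members (18.8%), against 1.85% of all promoters, and the NRF1 motif in 6 members (8.7%), against 3.27%. At least 1 of the 3 was present in 39 members (56.5%), against 14.6% of all promoters, and no ETS match overlapped a YY1 match. Of the 43 matched members that were lower at day 2, 21 held the ETS motif, 9 the YY1 motif and 6 the NRF1 motif. Of the 8 matched members that were higher at day 2, these numbers were 3, 1 and 0, and of the 18 that passed the test in neither direction they were 5, 3 and 0. The 27305 promoters were neither limited to the 16327 tested genes nor matched to the members in base composition, whereas every member was tested. Whether the higher shares are particular to this family was not tested. A match describes the letters in the window only, and a window without one says nothing about the factor.

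Every member was expressed in all 6 libraries. On the CPM scale, member means ran from 5.21 to 79.7 at day 0 (median 29.5), from 3.79 to 67.9 at day 2 (median 26.5) and from 6.14 to 67.1 at day 5 (median 26.7). Between genes, levels were compared per length, as counts per kilobase of the deposited gene length scaled to the same sum in every library (TPM). On that scale at day 0, MRPL41 (196.8), MRPL51 (190.8) and MRPS24 (184.7) were highest, and MRPL19 (7.83), MRPL50 (7.84) and MRPS31 (7.98) were lowest. Within each of these trios the levels lay close together, so their order is not firm. The median per-length level was 60.1 at day 0, 39.2 at day 2 and 48.1 at day 5. These levels hold no TMM factors, so they also shift with the other genes of each library and were not used to compare days. MRPL14, for example, went from 77.33 at day 0 to 63.65 at day 2 per length, but from 32.5 to 30.96 CPM.

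At day 2 the mitochondrial ribosomal proteins were, as a family, lower than at day 0. Of 78 members, 46 (59%) were lower, where 33.4% of all tested genes were lower, and 11 (14.1%) were higher, where 33.4% of all tested genes were higher (edgeR quasi-likelihood test, Benjamini-Hochberg adjusted p under 0.05). The median log2 fold change of the members was -0.28, beside 0.00 over all tested genes. Their summed level was 2174 and 2201 CPM at day 2, against 2539 and 2593 CPM at day 0. Both day 2 sums lay below both day 0 sums. As a share of all counts, before any scaling between libraries, the family held 0.209% and 0.212% at day 2, against 0.279% and 0.283% at day 0. Most of the changes were small. With a test of changes beyond 1.2-fold, 27 members (34.6%) were lower, beside 24.9% of all genes, and 2 (2.56%) were higher, beside 25.9%. With a variation of at least 20% assumed in every gene, 8 members (10.3%) were lower, beside 15.3% of all genes. The share of members called lower was then no longer above that of all genes. The higher calls depended on scaling. With library totals in place of TMM factors, 2 members were higher and 60 lower. This scaling also moved the median of all genes to -0.18, and the shares of all genes called with it were not computed. The member median relative to that of all genes was then -0.29, beside -0.28 with TMM factors. Without day 0 replicate 1, 7 members were higher.

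**Figure D1:**
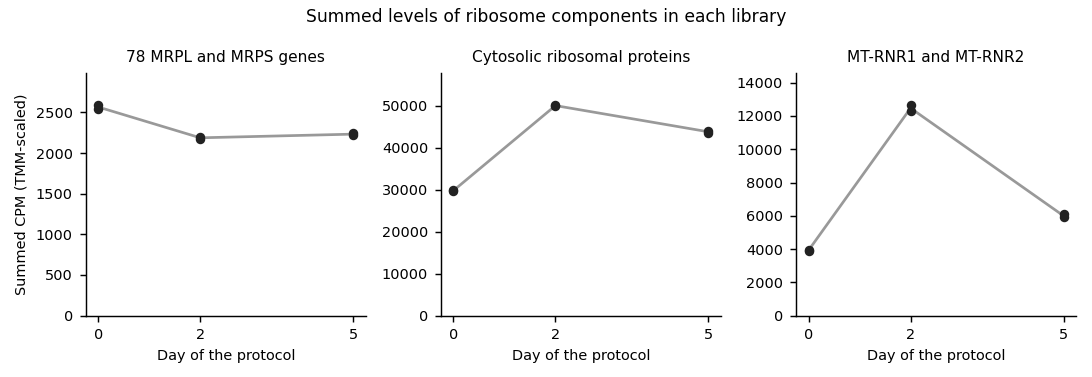
Summed level in CPM (TMM-scaled, vertical axes from 0) against day of the protocol for the 78 mitochondrial ribosomal protein genes, 77 cytosolic ribosomal protein genes and the 2 mitochondrial rRNA genes; each point is 1 library and lines join the means of each day. The member sum is lower at days 2 and 5 than at day 0, while the other sums are higher at both.

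The largest falls at day 2 included 3 members that fell by more than 2-fold. MRPS6 (bS6m in the unified ribosomal nomenclature), a small-subunit homologue of bacterial S6, had 15.5 and 17.2 CPM at day 2, against 45.2 and 44.5 CPM at day 0. Its log2 fold change was -1.45 ± 0.07 (SE; adjusted p = 1.5e-11). It lies on chromosome 21 from 34073224 to 34143034 (plus strand, GRCh38). MRPL1, the protein of the mobile L1 stalk near the tRNA exit site, had 4.16 and 3.42 CPM at day 2, against 8.08 and 9.58 CPM at day 0. This was a log2 fold change of -1.23 ± 0.16 (adjusted p = 3.7e-06), from the lowest counts among these. MRPL15, a large-subunit homologue of bacterial L15, had 13.3 and 15.5 CPM at day 2, against 32.8 and 33.8 CPM at day 0, a log2 fold change of -1.21 ± 0.08 (adjusted p = 8.4e-10). In all 3 genes both day 2 libraries were below both day 0 libraries.

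The next falls were in MRPL54, MRPL44 and MRPS18C. MRPL54, a protein of the large subunit found in mitochondria and not in bacteria, had 7.24 and 7.06 CPM at day 2, against 13.2 and 13.1 CPM at day 0 (log2 fold change -0.88 ± 0.12, adjusted p = 5.3e-06). MRPL44 is a large-subunit protein related to ribonuclease III. It had 25.5 and 26.0 CPM at day 2, against 48.8 and 44.7 CPM at day 0 (-0.86 ± 0.07, adjusted p = 5.8e-09). MRPS18C, the homologue of bacterial S18, had 9.04 and 12.2 CPM at day 2, against 18.1 and 19.3 CPM at day 0 (-0.81 ± 0.12, adjusted p = 2.1e-05). MRPS18C varied most between its day 2 libraries, yet the groups did not overlap. Below these came MRPL46 (-0.77 ± 0.11), MRPS23 (-0.76 ± 0.07), MRPL27 (-0.71 ± 0.08) and MRPS16 (-0.68 ± 0.06), and the other members that fell lay between -0.66 and -0.15.

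The rises at day 2 were smaller. MRPL10, which anchors the stalk that recruits translation factors, had 47.9 and 45.5 CPM at day 2, against 29.7 and 32.4 CPM at day 0 (0.59 ± 0.07, adjusted p = 4.4e-07). MRPS31, a small-subunit protein specific to mitochondria, had 7.53 and 6.92 CPM at day 2, against 5.40 and 5.01 CPM at day 0 (0.47 ± 0.14, adjusted p = 0.00834). MRPL42 had 39.3 and 34.5 CPM at day 2, against 26.4 and 28.9 CPM at day 0 (0.41 ± 0.08, adjusted p = 3.4e-04). All 3 lay above day 0 in both libraries, and MRPL10 and MRPL42 were the 2 members whose rise was called under each scaling, filter, tool and left-out-library setting and beyond 1.2-fold, though not with a variation of 20% assumed. The other rises were in MRPS36 (0.40 ± 0.11), MRPL53 (0.36 ± 0.08), MRPL23 (0.34 ± 0.07, on the wall of the exit tunnel), MRPL30, MRPS2, MRPL55, MRPS27 and MRPL19 (0.18 ± 0.07). The calls of MRPS31, MRPS36, MRPL53 and MRPL23 were lost with library totals, and MRPL19 was then at -0.00 (log2).

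Falls were found in both subunits and in both evolutionary classes. Of 51 large-subunit proteins, 30 were lower and 7 higher at day 2 (median log2 fold change -0.30). Of 26 small-subunit proteins, 16 were lower and 3 higher (median -0.28). Among the 46 homologues of bacterial proteins, 28 were lower and 6 higher (median -0.32), and among the 31 proteins specific to mitochondria 18 were lower and 4 higher (median -0.23). Beside these counts, 33.4% of all tested genes were called in each direction at day 2. The subunits and classes were not tested against each other. The ratio of summed CPM of the large to the small subunit was 1.96 and 1.99 at day 0, 2.00 and 2.02 at day 2 and then 1.99 and 1.96 at day 5, which overlapped between days.

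Within the stalks, members went different ways at day 2. MRPL12, which forms the flexible arms that contact translation factors and which is also known to bind the mitochondrial RNA polymerase, had 34.8 and 33.6 CPM at day 2, against 47.9 and 46.4 CPM at day 0 (-0.46 ± 0.06, adjusted p = 1.3e-06). MRPL11, at the base of the same stalk, was at -0.25 ± 0.09 (adjusted p = 0.0166), a call that was lost without day 0 replicate 1 or without day 2 replicate 2. MRPL10 rose and MRPL1 fell, as given above. MRPL18, of the central protuberance, was at -0.19 ± 0.08 (adjusted p = 0.0535). MRPL45, which lies by the exit tunnel and anchors the ribosome to the inner membrane, was at 0.18 ± 0.09 (adjusted p = 0.0807). MRPL58, an integral large-subunit protein that is also a peptidyl-tRNA hydrolase able to rescue stalled ribosomes, had 12.6 and 11.3 CPM at day 2, against 18.7 and 18.1 CPM at day 0 (-0.63 ± 0.11, adjusted p = 6.1e-05). MRPL41, among the 3 members of highest per-length level, did not pass the test at day 2 (-0.05 ± 0.06, adjusted p = 0.411).

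**Figure D2:**
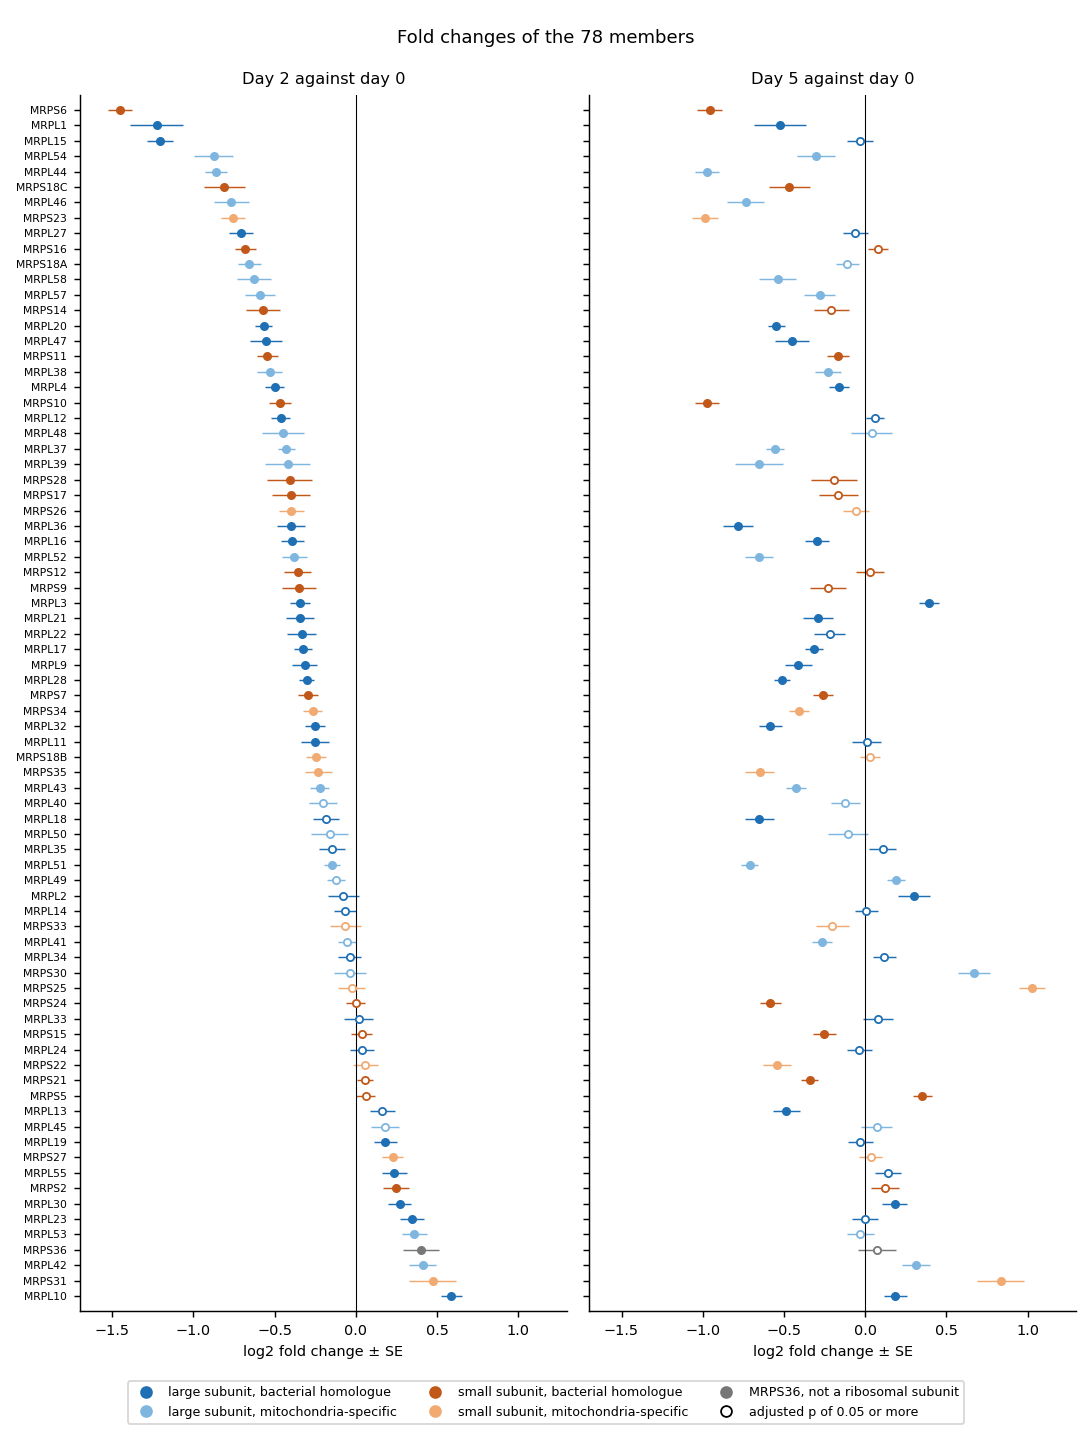
Log2 fold change with its standard error for each of the 78 members, day 2 against day 0 (left) and day 5 against day 0 (right), with members in the order of the day 2 values in both panels; colours give the subunit and whether the protein has a bacterial homologue, and open points have an adjusted p of 0.05 or more. MRPS6, MRPL1 and MRPL15 are lowest at day 2, and by day 5 MRPL15 is near 0 while MRPS25 and MRPS31 stand highest.

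At day 5 the family was again lower than at day 0, with other members leading. Of 78 members, 37 (47.4%) were lower, where 34.1% of all genes were lower, and 10 (12.8%) were higher, where 35.8% of all genes were higher. The median log2 fold change of the members was -0.20, beside 0.04 over all genes. The summed level was 2223 and 2242 CPM at day 5, against 2539 and 2593 CPM at day 0, and the groups did not overlap. The share of all counts was 0.211% and 0.213% at day 5, against 0.279% and 0.283% at day 0. Beyond 1.2-fold, 26 members (33.3%) were lower, beside 27.2% of all genes, and 5 (6.41%) were higher, beside 28.4%. With a variation of 20% assumed, 7 members (8.97%) were lower, beside 19.6% of all genes, and 2 (2.56%) were higher, beside 21%. With library totals, which moved the median of all genes to -0.16, 57 members were lower and 5 higher. The shares of all genes called with library totals were not computed. The member median relative to that of all genes was then -0.24, as with TMM factors. Without day 0 replicate 1, or without day 5 replicate 2, 6 members were higher. Of the large-subunit proteins 25 were lower and 7 higher (median -0.16), and of the small-subunit proteins 12 were lower and 3 higher (median -0.21). The comparisons with day 0 share the day 0 libraries.

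Several members were close to 2-fold lower at day 5. MRPS23 had 20.8 and 19.9 CPM at day 5, against 41.9 and 38.7 CPM at day 0 (-0.99 ± 0.08, adjusted p = 5.5e-09). MRPS10, in the head of the small subunit, had 21.9 and 24.4 CPM at day 5, against 47.5 and 43.6 CPM at day 0 (-0.97 ± 0.07, adjusted p = 3.1e-09). MRPL44 had 24.5 and 23.1 CPM at day 5, against 48.8 and 44.7 CPM at day 0 (-0.97 ± 0.07, adjusted p = 2.3e-09). In each of these 3 genes both day 5 libraries lay below both day 0 libraries. MRPS6 was at 22.4 and 23.6 CPM at day 5 (-0.96 ± 0.07 against day 0, adjusted p = 3.9e-09). MRPL36, a small zinc-binding protein homologous to bacterial L36, was at 15.6 and 19.4 CPM, against 29.7 and 30.7 CPM at day 0 (-0.78 ± 0.09, adjusted p = 9.3e-07). MRPL46 was at 9.42 and 9.56 CPM, against 16.1 and 15.5 CPM at day 0 (-0.74 ± 0.11, adjusted p = 1.7e-05).

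Other members differed little from day 0 at day 2 and by more at day 5. MRPL51, among the 3 highest in per-length level at day 0, had 46.7 and 45.3 CPM at day 5, against 75 and 75.5 CPM at day 0 (-0.71 ± 0.05, adjusted p = 2.0e-09), while its fall at day 2 was smaller (-0.15 ± 0.05 against day 0, adjusted p = 0.0117). MRPS24, a homologue of bacterial S3 at the mRNA entry, had 38.5 and 33.9 CPM at day 5, against 51.9 and 56.3 CPM at day 0 (-0.58 ± 0.07, adjusted p = 5.7e-07), and stood at -0.00 ± 0.06 at day 2. MRPL18 had 21.2 and 17.4 CPM at day 5, against 30.8 and 29.8 CPM at day 0 (-0.65 ± 0.09, adjusted p = 5.0e-06). The groups did not overlap in these genes. MRPL41 was also lower at day 5 (-0.26 ± 0.06, adjusted p = 9.8e-04), and MRPL58 stood at -0.54 ± 0.11 (adjusted p = 3.8e-04).

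MRPS25, specific to the mitochondrial small subunit, was the 1 member more than 2-fold higher at day 5. It had 49.3 and 51.1 CPM at day 5, against 22.4 and 26.8 CPM at day 0 (1.03 ± 0.08, adjusted p = 3.4e-09). MRPS31 had 8.93 and 9.60 CPM at day 5, against 5.40 and 5.01 CPM at day 0 (0.83 ± 0.15, adjusted p = 7.7e-05). MRPS30, which despite its symbol is a large-subunit protein, had 31.3 and 35.0 CPM at day 5, against 19.4 and 22.3 CPM at day 0 (0.67 ± 0.10, adjusted p = 1.1e-05). These 3 and MRPL3 and MRPS5 were the members whose rise was called beyond 1.2-fold and under each scaling, filter, tool and left-out-library setting; with a variation of 20% assumed, the calls of MRPS25 and MRPS31 held. MRPL3, a core protein near the peptidyl transferase centre, had 51.8 and 54.8 CPM at day 5, against 40.8 and 40.4 CPM at day 0 (0.39 ± 0.06, adjusted p = 1.9e-05). MRPS5 had 59.6 and 54.4 CPM at day 5, against 45.2 and 44.1 CPM at day 0 (0.35 ± 0.06, adjusted p = 4.2e-05). MRPL42 was at 0.31 ± 0.09 (adjusted p = 0.00472), a call that was lost with library totals and when day 0 replicate 1 or day 5 replicate 2 was left out. The calls of MRPL2, MRPL10, MRPL30 and MRPL49 were also lost under some of these settings, and with library totals MRPL10, MRPL30 and MRPL49 turned to -0.02.

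**Figure D3:**
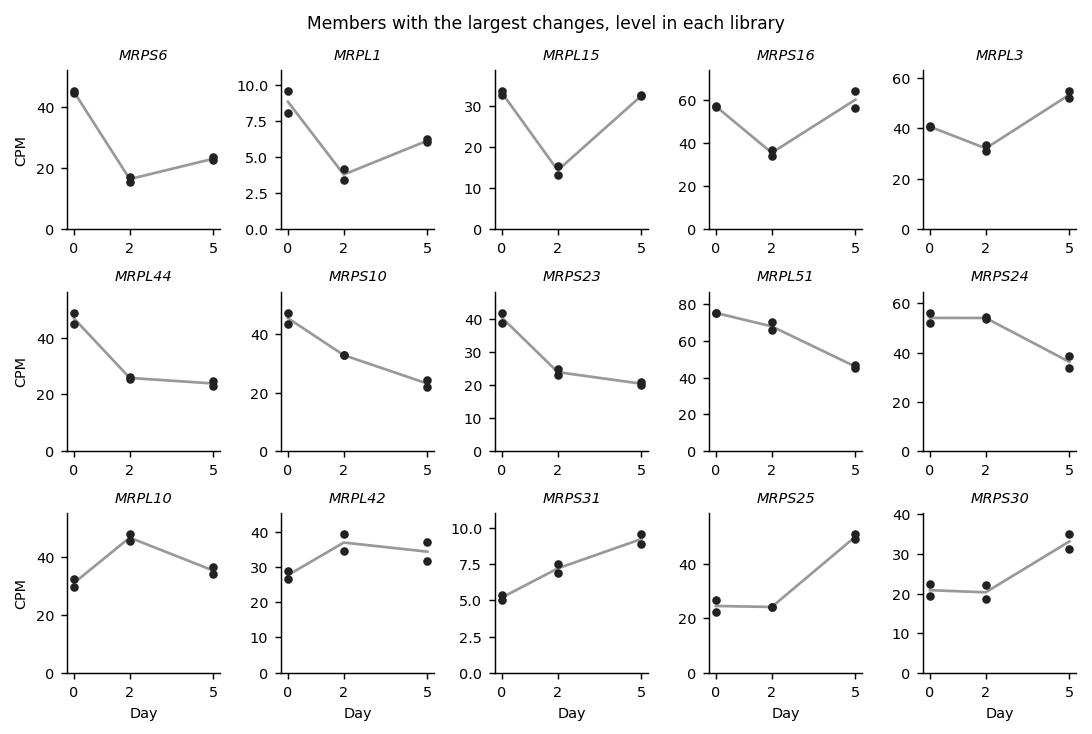
CPM of 15 members in each library (points) with the mean of each day joined by a line, by day of the protocol, each axis starting at 0. The top row fell at day 2 and stood higher at day 5, the middle row was lowest at day 5, and the bottom row was higher at day 2, at day 5 or at both.

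Between day 2 and day 5 members moved in both directions. Of 78 members, 27 (34.6%) were higher at day 5 than at day 2, where 32.1% of all genes were higher, and 22 (28.2%) were lower, where 33.7% of all genes were lower. These shares are near those of all genes, and the median log2 fold change of the members was 0.05, beside 0.01 over all genes. Beyond 1.2-fold, 13 (16.7%) were higher, beside 24.4% of all genes, and 10 (12.8%) lower, beside 26.1%. MRPL15 had 32.5 and 32.7 CPM at day 5, against 13.3 and 15.5 CPM at day 2 (1.17 ± 0.09, adjusted p = 2.3e-09). Its day 5 level differed little from day 0 (-0.03 ± 0.08, adjusted p = 0.735). MRPS25 was 1.05 ± 0.08 higher at day 5 than at day 2 (adjusted p = 3.4e-09). MRPS16, a small-subunit homologue of bacterial S16, had 56.2 and 64.3 CPM at day 5, against 34.2 and 36.9 CPM at day 2 (0.76 ± 0.07, adjusted p = 2.4e-08), and 56.7 and 57.5 CPM at day 0.

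Members of the stalks were among those higher at day 5 than at day 2. MRPL12 had 48.8 and 49.5 CPM at day 5, against 34.8 and 33.6 CPM at day 2 (0.53 ± 0.06, adjusted p = 5.4e-07), which put it at 0.06 ± 0.06 against day 0 (adjusted p = 0.341). MRPL1 had 6.05 and 6.22 CPM at day 5, against 4.16 and 3.42 CPM at day 2 (0.70 ± 0.18, adjusted p = 0.00221). Against day 0 MRPL1 remained at -0.53 ± 0.16 (adjusted p = 0.00769), a call that was lost without day 0 replicate 2. MRPL10 went the other way and was lower at day 5 than at day 2 (-0.40 ± 0.07, adjusted p = 6.0e-05). The largest falls between these days were in MRPL13 (-0.65 ± 0.08), MRPS22 (-0.60 ± 0.09), MRPS24 (-0.58 ± 0.07), MRPL51 (-0.56 ± 0.05), MRPS10 (-0.51 ± 0.08) and MRPL18 (-0.47 ± 0.09). The comparison shares its day 2 libraries with that of day 2 against day 0, and its day 5 libraries with that of day 5 against day 0.

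The 3 MRPS18 paralogs are related to bacterial S18, and the lists used here count MRPS18C alone as its homologue and MRPS18A and MRPS18B as specific to mitochondria. MRPS18A, the large-subunit paralog, had 21.0 and 20.9 CPM at day 2, against 33.0 and 33.1 CPM at day 0 (-0.66 ± 0.07, adjusted p = 2.6e-07), and was at 31.19 and 29.98 CPM at day 5. MRPS18B had 31.7 and 32.1 CPM at day 2, against 37.8 and 38.0 CPM at day 0 (-0.25 ± 0.06, adjusted p = 0.00165), and was at 39.0 and 38.2 CPM at day 5. MRPS18C was at 12.6 and 14.5 CPM at day 5, which was -0.47 ± 0.13 against day 0 (adjusted p = 0.00369). Differences between the paralogs' fold changes were not tested. How the counting shared reads among near-identical copies, such as paralogs and pseudogenes, is not given in the sources used here. With the 76 rows named as pseudogenes of the family added, its share of counts was 0.28% and 0.284% at day 0, 0.21% and 0.213% at day 2 and then 0.212% and 0.214% at day 5.

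MRPS36, kept because the rule is by symbol, had 16.6 and 15.9 CPM at day 2, against 12.3 and 12.4 CPM at day 0 (0.40 ± 0.11, adjusted p = 0.00419), and 11.4 and 14.5 CPM at day 5 (0.07 ± 0.12 against day 0, adjusted p = 0.598). At the other end, 8 members (10.3%) passed the test in none of the 3 comparisons, as did 13.3% of all genes. They were MRPL14, MRPL24, MRPL33, MRPL34, MRPL40, MRPL45, MRPL50 and MRPS33. MRPL14, a core homologue of bacterial L14, ranged from 29.5 to 32.9 CPM over the 6 libraries, and MRPL24 from 28.4 to 32.8 CPM. With library totals MRPL14 stood at -0.20 at day 5 against day 0.

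Some members share their locus with another gene, which limits what their counts can show. Annotated exons of 29 members overlap an exon of another gene on the opposite strand and those of 16 members on the same strand, 41 members in all. Whether the counting used strand is not given, so reads from such overlaps cannot be assigned with certainty. MRPS6 shares exons on the same strand with SLC5A3, which encodes a myo-inositol transporter. SLC5A3 had 6.80 and 6.57 CPM at day 2, against 16.70 and 18.02 CPM at day 0 (-1.38 ± 0.11, adjusted p = 7.1e-09). That fall was close in size to the fall of MRPS6. At day 5 the 2 genes differed more, with SLC5A3 at -0.41 ± 0.11 against day 0 (adjusted p = 0.0025) and MRPS6 at -0.96 ± 0.07. MRPS25 (chromosome 3, 15042460 to 15065335, minus strand) overlaps NR2C2, which encodes a nuclear receptor, on the opposite strand. NR2C2 had 65.8 and 64.4 CPM at day 5, against 31.3 and 30.7 CPM at day 0 (1.07 ± 0.06, adjusted p = 2.3e-11), close to the rise of MRPS25, but NR2C2 was also higher at day 2 (0.58 ± 0.06, adjusted p = 9.3e-08), where MRPS25 stood at -0.03 ± 0.08. The part of shared reads in either result was not tested.

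For 17 members a tested protein-coding gene starts head to head within 1000 bases on the opposite strand. At day 2, 14 of these members were called, and their partner was called the same way in 9, the opposite way in 2 and in neither direction in 3, where 33.4% of all tested genes were called in each direction. For day 5 against day 0, 15 were called, with 9 partners the same way, 3 the opposite way and 3 in neither direction, beside 34.1% of all genes lower and 35.8% higher. MRPL46 and MRPS11 are each other's partner, with starts 34 bases apart. With this pair counted once, 8 of 13 partners at day 2 and 8 of 14 at day 5 were called the same way. MRPS11 had 25.2 and 27.1 CPM at day 2, against 38.3 and 38.1 CPM at day 0 (-0.55 ± 0.07, adjusted p = 1.2e-06), beside the fall of MRPL46. MRPL47, a homologue of bacterial L29, went against its partner. It was at -0.55 ± 0.10 at day 2 (adjusted p = 8.7e-05), while NDUFB5, a complex I subunit whose start lies 36 bases away, was at 0.37 ± 0.06 (adjusted p = 4.0e-05). MRPL36, by contrast, fell with its partner NDUFS6, also of complex I, which was at -0.72 ± 0.05 at day 2 (adjusted p = 2.7e-09).

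Against day 0, the ribosomal proteins that carry other symbols went the way of most called members where they passed the test. Among all tested genes, 33.4% were called in each direction at day 2, and 34.1% were lower and 35.8% higher at day 5 against day 0. Of the 5 genes with other symbols, 3 were lower and 0 higher at day 2, and 4 were lower and 0 higher at day 5 against day 0. By edgeR at an unadjusted p under 0.05, by DESeq2 and by limma-voom the number higher was also 0 in both comparisons. With a variation of 20% assumed in every gene, an alternative chosen after seeing the data, 0 were lower at day 2 (also at an unadjusted p under 0.05, while DESeq2 and limma-voom called 3) and 1 was lower at day 5. At day 5 against day 2, 3 were lower and 0 higher by edgeR, DESeq2 and limma-voom, and at an unadjusted p under 0.05 limma-voom had 1 higher. The members went both ways in that comparison, with 27 higher and 22 lower. Of all genes, 32.1% were higher and 33.7% lower there by edgeR. GADD45GIP1, a large-subunit protein, had CPM of 72.04 and 77.5 at day 0, 48.6 and 53.6 at day 2 and then 38.3 and 38 at day 5 (-0.55 ± 0.06 and -0.97 ± 0.06 against day 0, adjusted p = 1.6e-07 and 2.4e-10). DAP3, a small-subunit GTP-binding protein, was at -0.08 ± 0.04 at day 2 (adjusted p = 0.0871) and at -0.30 ± 0.04 at day 5 (adjusted p = 9.4e-06). Its day 2 value lay between -0.27 and -0.08 over the settings run. PTCD3 passed in neither comparison.

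Genes for assembly of the mitoribosome were also more often lower than higher at day 2, with 15 lower and 5 higher of 28 (median -0.33). Of all tested genes, 33.4% were called in each direction at day 2. ERAL1, which binds the small-subunit rRNA during assembly, had 20.1 and 21.9 CPM at day 2, against 42.1 and 40.1 CPM at day 0 (-0.97 ± 0.07, adjusted p = 3.3e-09). MTG1, a GTPase of large-subunit assembly, had 14.7 and 14.3 CPM at day 2, against 26.9 and 28.9 CPM at day 0 (-0.95 ± 0.08, adjusted p = 1.4e-08). At day 5 it had 39.5 and 42.5 CPM, above day 0 (0.55 ± 0.07, adjusted p = 3.5e-06). DHX30, an RNA helicase needed for assembly, was at -0.87 ± 0.05 at day 2 (adjusted p = 3.8e-11) and at -0.00 ± 0.05 at day 5. Its day 5 value against day 0 lay between -0.21 and 0.02 over the settings run. In the other direction, TFB1M, the methyltransferase of the small-subunit rRNA, had 42.4 and 44.4 CPM at day 2, against 19.7 and 19.4 CPM at day 0 (1.153 ± 0.074, adjusted p = 3.4e-10), and 10.9 and 9.70 CPM at day 5 (-0.92 ± 0.10 against day 0, adjusted p = 1.5e-07). METTL15, another methyltransferase of that rRNA, was at 1.31 ± 0.10 at day 2 (adjusted p = 5.9e-09). The assembly list at day 5 against day 0 held 10 lower and 8 higher of 28, beside 34.1% of all genes lower and 35.8% higher. MALSU1 (-1.10 ± 0.08) and NGRN (-0.90 ± 0.04) were among the falls.

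The 16 factors for translation in mitochondria did not share the members' direction at day 2, with 8 higher and 6 lower (median 0.11). At day 5 against day 0, 5 were higher and 7 lower. The shares of all genes were 33.4% in each direction at day 2, and 35.8% higher and 34.1% lower at day 5. OXA1L, the insertase that receives newly made proteins at the inner membrane, had 120.8 and 120.2 CPM at day 2, against 77.3 and 77.8 CPM at day 0 (0.64 ± 0.04, adjusted p = 1.8e-10). TSFM, the exchange factor of the elongation factor TUFM, had 10.99 and 12.18 CPM at day 2, against 17.4 and 20.4 CPM at day 0 (-0.71 ± 0.11, adjusted p = 1.6e-05). TUFM itself was at 0.12 ± 0.04 (adjusted p = 0.0113), a value that turned to -0.06 with library totals.

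**Figure D4:**
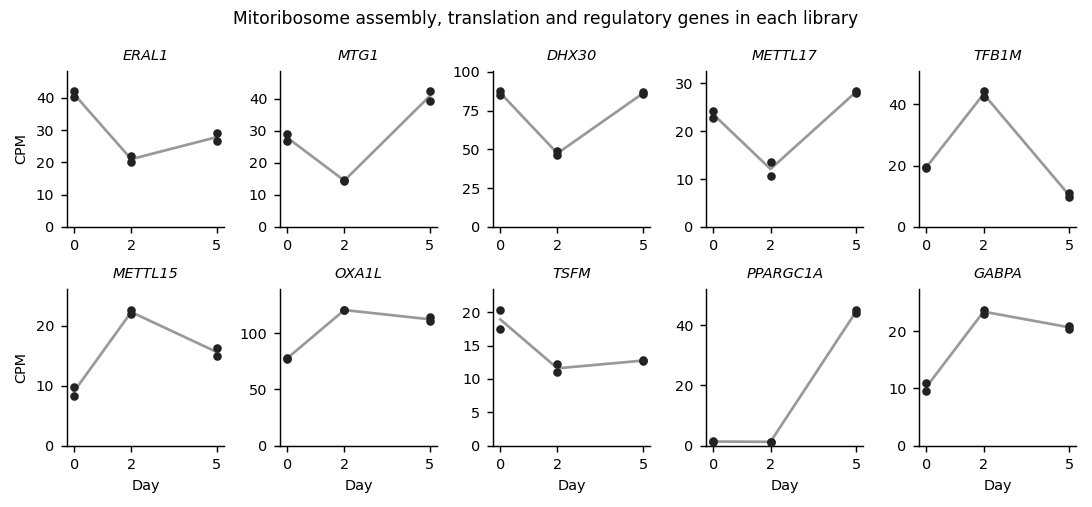
CPM in each library (points) with day means joined by lines, by day of the protocol, for 10 genes of mitoribosome assembly, mitochondrial translation and its transcriptional regulators, each axis starting at 0. ERAL1, MTG1, DHX30 and METTL17 dip at day 2, TFB1M and METTL15 peak there, and PPARGC1A is high at day 5 alone among the 3 days.

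The mitochondrial rRNAs, on which the members assemble, were higher while the proteins' mRNAs were lower. MT-RNR1, the small-subunit rRNA, had CPM of 435 and 431 at day 0, 2371 and 2318 at day 2 and then 809 and 812 at day 5 (2.44 ± 0.02 and 0.90 ± 0.02 against day 0, adjusted p = 1.9e-22 and 4.4e-17). MT-RNR2, the large-subunit rRNA, was at 1.54 ± 0.02 at day 2 and 0.57 ± 0.02 at day 5. How the library preparation captured rRNA is not given beyond the kit, so these are levels of what was sequenced. Of the 13 mRNAs of mitochondrial DNA, 10 were lower and 1 higher at day 2, and all 13 were higher at day 5 against day 0. With a variation of 20% assumed, 1 was lower at day 2 and 3 were higher at day 5. Without that assumption, 33.4% of all genes were called in each direction at day 2, and 35.8% were higher at day 5 against day 0. Among 13 genes that transcribe or maintain mitochondrial DNA, 3 were lower and 2 higher at day 2. POLRMT, the mitochondrial RNA polymerase, was at -0.07 ± 0.06 (adjusted p = 0.342).

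The regulators known for this gene family were called in both directions at day 2, and those called at day 5 were higher. Of 12 such genes, 4 were lower and 5 higher at day 2, and 0 were lower and 7 higher at day 5 against day 0. Of all tested genes, 33.4% were called in each direction at day 2, and 34.1% were lower and 35.8% higher at day 5. The regulators' day 2 log2 fold changes ran from -1.28 to 1.196 (median -0.05). Whether any of them acts on the members here was not tested. The number lower at day 5 was also 0 by edgeR at an unadjusted p under 0.05, by DESeq2 and by limma-voom. PPARGC1A, a coactivator of mitochondrial biogenesis induced by cyclic AMP, had 44.0 and 45.2 CPM at day 5, against 1.54 and 1.13 CPM at day 0 (5.07 ± 0.14, adjusted p = 1.7e-15), and 1.29 and 1.19 CPM at day 2. GABPA, the ETS factor, had 23.1 and 23.8 CPM at day 2, against 11 and 9.53 CPM at day 0 (1.196 ± 0.096, adjusted p = 6.9e-09), and was at 1.02 ± 0.10 at day 5. PPRC1, a coactivator related to PPARGC1A, had 18.8 and 19.9 CPM at day 2, against 41.0 and 41.4 CPM at day 0 (-1.09 ± 0.07, adjusted p = 2.5e-10). NRF1 was at -0.25 ± 0.11 at day 2 (adjusted p = 0.049), a call that was lost with DESeq2 and when any 1 library of days 0 or 2 was left out, and at 0.38 ± 0.11 at day 5 (adjusted p = 0.00487), which was lost with library totals. YY1 was at 0.64 ± 0.05 at day 2 (adjusted p = 1.2e-09). Over the settings run, MYC lay between 0.27 and 0.53 at day 2 and between -0.17 and 0.17 at day 5, against day 0. TFAM lay between -0.24 and 0.05 at day 2 and between 0.43 and 0.67 at day 5.

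Cytosolic ribosomal proteins went the opposite way. Of 77 of their genes, 77 were higher at day 2 (median log2 fold change 0.70), and 72 were higher and 1 lower at day 5 against day 0 (median 0.49). With a variation of 20% assumed, 40 were higher at day 2 and 20 at day 5. The ratio of summed CPM of cytosolic to mitochondrial ribosomal proteins was 11.8 and 11.5 at day 0, 23.1 and 22.7 at day 2 and then 19.8 and 19.4 at day 5. This ratio needs no scaling between libraries. Nuclear-encoded subunits of the respiratory chain lay between them, with 17 of 35 higher and 11 lower at day 2 (median 0.04), and 16 higher and 13 lower at day 5 (median 0.08). Of 16 general mitochondrial proteins, such as porins and import receptors, 9 were lower and 3 higher at day 2, and 9 lower and 4 higher at day 5. Beside these lists, 33.4% of all tested genes were called in each direction at day 2. At day 5 against day 0, 34.1% of all genes were lower and 35.8% higher.

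**Figure D5:**
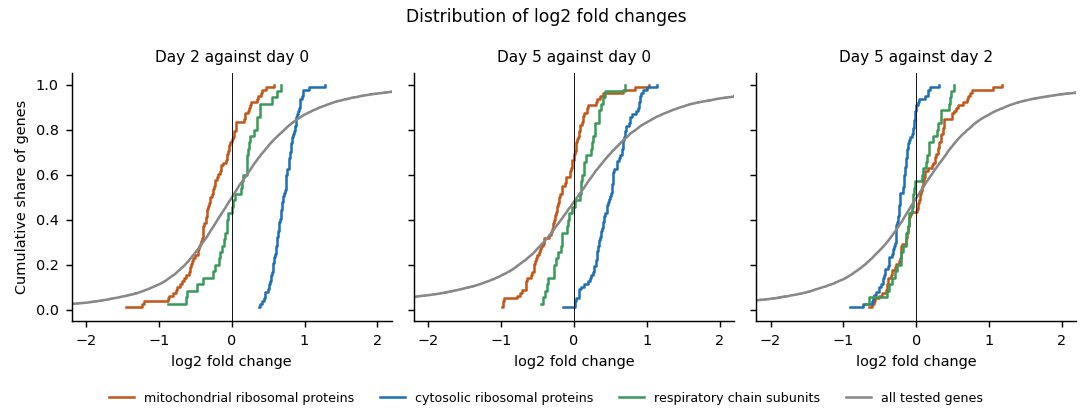
Cumulative share of genes (vertical axis) by log2 fold change (horizontal axis, from -2.2 to 2.2) in the 3 comparisons, for the 78 mitochondrial ribosomal protein genes, 77 cytosolic ribosomal protein genes, 35 respiratory chain subunit genes and all 16327 tested genes. At days 2 and 5 against day 0 the members' curve lies left of that of all genes at its median (-0.28 and -0.20), and the cytosolic curve lies right of it.

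The spread between the 2 libraries of a day was small, with a common biological variation of 3.33%, and it set how many small changes passed the test. With a variation of at least 20% assumed in every gene, an alternative chosen after seeing the data, 8 members (10.3%) were lower and 0 higher at day 2, beside 15.3% and 17.4% of all genes. At an unadjusted p under 0.05 in this edgeR likelihood ratio test 13 were lower and 1 higher, while DESeq2 and limma-voom, with the spread as estimated, called 9 and 12 higher. Those 8 were MRPL1, MRPL15, MRPL44, MRPL46, MRPL54, MRPS6, MRPS18C and MRPS23. At day 5 against day 0, 7 (8.97%) were lower and 2 (2.56%) higher, beside 19.6% and 21% of all genes. The 7 were MRPL36, MRPL44, MRPL46, MRPL51, MRPS6, MRPS10 and MRPS23, and the 2 were MRPS25 and MRPS31. At day 5 against day 2, 5 (6.41%) were higher and 0 lower (3 at an unadjusted p under 0.05, and 22 each by DESeq2 and limma-voom), beside 16.3% and 17.5% of all genes, and the 5 were MRPL3, MRPL15, MRPS16, MRPS25 and MRPS30. The same setting left 6 assembly genes lower and 3 higher at day 2, and 6 lower and 1 higher at day 5 against day 0. Of the regulators it left 3 lower and 2 higher at day 2 and 4 higher at day 5. Of the translation factors 1 was lower at each of the 2 days, and of the respiratory chain subunits 1 was lower at day 2 and 1 higher at day 5. Beside these list counts stand the same shares of all genes, 15.3% lower and 17.4% higher at day 2 and 19.6% lower and 21% higher at day 5.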

How the data were processed

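RNA sequencing libraries of BJ fibroblasts and of cells at days 2 and 5 of the protocol were analysed, 2 per day. RNA was isolated with TRIzol and cleared of DNA with DNase I, and libraries used Illumina's TruSeq RNA kit, per the labels' protocols. The values deposited by the authors were expected counts per gene, unscaled between libraries, as the values themselves and, per the file headers, their names show. GRCh38 is the build named in the submitters' processing notes. Aligner, counting tool, annotation release, strand setting and handling of multiply mapped reads are not given in the sources used here. Of 60843 genes, 172 without a name (0.0356 to 0.0475% of counts) were left out. Over all 60843 genes, 87.2% of the values were already whole before rounding for the fit, with counts of 0 included. The share among the tested genes alone was not computed. The authors' 3 columns of day means were not used.

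All 6 libraries entered 1 fit by day with edgeR 4.0.16 under R 4.3.3. It used filterByExpr (minimum count 10, minimum total 15), TMM factors and quasi-likelihood F tests with 3 residual degrees of freedom. P-values are two-sided and adjusted by the Benjamini-Hochberg method over 16327 genes, and 0.05 is the limit for a call. Each standard error is the size of the log2 fold change divided by the square root of F. The steps were tested on simulated data. Gene coordinates are those of GENCODE 29 on GRCh38, matched for 78 of 78 members. With 2 libraries against 2, no exact permutation test of sums or shares can reach 0.05, so these are given as values. Alternatives were DESeq2 1.42.0, limma-voom (limma 3.58.1), other scalings, filters, a 1.2-fold threshold, the groups in the fit, a replicate block and leaving out each library. Replicate numbers were not treated as pairs. Deviations of same-numbered libraries correlated at 0.0537 to 0.0745 over 9184 genes, a weak correlation that cannot exclude a shared culture or batch.

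The members and lists were chosen with earlier results of these data known. Members were named by a rule: in each comparison the 6 largest changes in each direction among called members whose libraries did not overlap, the 3 highest and 3 lowest per-length levels, the MRPS18 paralogs, members never called, and some kept for role or locus. Other members named were chosen after their values were seen.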

Additional observations from a re-analysis of the deposited data

How the results depend on the processing

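Leaving aside the 1.2-fold and 20% settings, the member calls that held under every alternative run were 40 of 57 for day 2 against day 0 (38 lower, 2 higher), 34 of 47 for day 5 against day 0 (29 lower, 5 higher) and 36 of 49 for day 5 against day 2 (15 lower, 21 higher). Members higher at day 2 numbered 2 with library totals, 2 beyond 1.2-fold, 0 with 20% variation assumed and 7 to 12 with 1 library left out. Members higher at day 5 against day 0 numbered 5, 5, 2 and 6 to 10 under the same settings. Members lower at day 2 numbered 27 (34.6%) beyond 1.2-fold and 8 (10.3%) with 20% variation, beside 24.9% and 15.3% of all genes. Members lower at day 5 against day 0 numbered 57 with library totals and 7 with 20% variation. At day 5 against day 2, 13 were higher and 10 lower beyond 1.2-fold, and 5 and 0 with 20% variation. The other shares of all genes at the 1.2-fold and 20% settings are given above. How many calls of all genes held under every alternative was not computed. Shares of all genes with library totals or with 1 library left out were not computed either.

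The member median at day 2 was -0.47 with library totals and -0.31 without IGFBP5 in the scaling. At day 5 against day 0 it was -0.40 with library totals, -0.23 with DESeq2 and with RLE factors, -0.22 without IGFBP5, -0.25 with no count filter, and -0.22 to -0.17 with 1 library left out. At day 5 against day 2 it was 0.017 with no filter, 0.0823 with a stricter filter and 0.0033 to 0.048 with 1 library left out. With library totals the sign turned for 9 members at day 2 and 18 at day 5 against day 0, of which 6 and 11 were called neither with TMM factors nor with library totals. Among results called with either, it turned at day 2 for MRPL19 (-0.0034), MRPS15 (-0.15), MRPS21 (-0.13) and TUFM (-0.0646), and at day 5 against day 0 for MRPL10 (-0.0208), MRPL12 (-0.14), MRPL14 (-0.20), MRPL30 (-0.023), MRPL49 (-0.0163), MRPS18B (-0.18), MRPS27 (-0.17) and TUFM (-0.10). Library totals leave out the TMM factors, which were 1.098 and 1.091 at day 0. They were 0.963 in both day 2 libraries, and 0.948 and 0.950 at day 5. Log2 fold changes against day 0 are therefore lower with library totals. Why the factors differ between days, and the cause of the other differences, was not tested. The replicate block gave 11 higher and 49 lower members at day 2. For day 5 it gave 10 higher and 37 lower against day 0 and 28 higher and 24 lower against day 2, with no call of a member lost. Shares of all genes called with the block were not computed. Depth limits precision for members of low counts such as MRPL1, with a standard error of 0.18 at day 5 against day 2.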
